A study of Mus musculus with 8 samples.

Results

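The ileum of 1 antibiotic-treated Cftr null mouse was compared with that of 3 untreated Cftr null mice. These are 4 of the 8 libraries of the series, and they were chosen by the genotype and treatment in their labels. All mice were FVB, and the null animals (KO) were homozygous for the Cftr tm1Cam allele, which removes CFTR function in every tissue. The untreated KO mice came from couples 1 (female), 2 (male) and 3 (female). The treated KO mouse, labelled female, drank water with 0.3 g/L ciprofloxacin and 0.5 g/L metronidazole. For how long it did so is not given in the sources used here. Every mouse had a sex-matched wild-type (WT) littermate, reared alike on a low-fibre diet and an osmotic laxative that had been withdrawn for more than 4 days before sampling. Whole-tissue sections from less than 6 cm above the ileocecal valve were used, so fewer cells of a type and less RNA per cell cannot be told apart. Treatment coincides with 1 couple, its litter and its normalization set, and these cannot be told apart from the antibiotics.

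CFTR is an epithelial channel for chloride and bicarbonate, and without it intestinal mucus is dense and luminal fluid is scarce. Mice that lack it tend to have obstruction and bacterial overgrowth in the small intestine. Ciprofloxacin blocks bacterial gyrase and metronidazole acts on anaerobes. Ileal enterocytes absorb lipid, nutrients and bile acids, Paneth cells secrete antimicrobial peptides, and bacteria and cytokines are known to raise epithelial defence genes.

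Of 41128 gene symbols in the deposited table, 11682 reached a value of 1 in 2 or more of the 4 KO libraries. A gene was counted as higher or lower when the treated KO value lay at least 2-fold beyond the nearest of the 3 untreated KO values on the log2(value + 1) scale. By this rule 202 genes were higher, which is 1.73% of those examined, and 254 were lower, which is 2.17%. At any distance beyond the range, 2231 genes (19.1%) lay above and 4829 (41.3%) below. With 1 treated library no p-value is given for single genes, and a permutation of 1 against 3 samples cannot give a one-sided p below 0.25. The median log2 difference over all genes was -0.14. Centring each library on its median gave 260 genes higher and 168 lower, so that 60.7% of the called genes were higher against 44.3% before, and quantile normalization over the 4 libraries gave 235 and 194 (54.8%). Without KO couple 1 the number of lower genes went from 254 to 413. Leaving out an untreated library can only narrow the range, so the rule itself pushes such counts up.

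The labels were checked first. Cftr (chr6:18170687-18322768, plus strand, GRCm38) was listed at 3.74, 2.65 and 3.17 in the untreated KO libraries and 4.94 in the treated one, against 9.94 to 13.8 in the 4 WT libraries. All KO values were below all WT values. The enterocyte genes Vil1 (467 to 618 in KO) and Cdx2 (52.5 to 71.9 in KO) were present in every library. Xist was listed at 0 in both libraries of the antibiotic couple, labelled female, so its sex could not be checked and a 0 was not read as absence. Liver transcripts were uneven. The summed value of 12 liver genes, listed after values were seen, was 221, 1.00 and 30.6 in untreated KO couples 1, 2 and 3, 416 in the treated KO library and 462 in its WT littermate, of which Alb made up 357 and 397. Of the 12, 7 (Ahsg, Apoa2, Gc, Mup3, Mup10, Fga, Fgb) were at 0 in the treated KO library.

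Epithelial defence genes had the lowest median difference of the 49 gene lists examined. Of 25 antimicrobial and acute phase genes examined, 13 were lower and none was higher, with a median log2 difference of -1.36. Reg3b (chr6:78370657-78373466, plus strand), a secreted lectin that binds bacteria, was listed at 9087, 9087 and 18690 in untreated KO couples 1 to 3 and 1577 with antibiotics. Reg3g, a related lectin that keeps bacteria from the epithelium, was listed at 1288, 3582 and 4501 against 192. Both lectins were called lower, which by the rule places the treated library below every untreated one. At any distance 41.3% of all genes lay below the range. The equal Reg3b values of couples 1 and 2, whose libraries share their sorted values, show the same rank in both. Saa1, an acute phase protein of the epithelium, was listed at 16.8, 57.9 and 187 against 0.571. Dmbt1, a mucosal scavenger protein, was listed at 241, 338 and 301 against 56.0, and Pla2g2a, a bactericidal phospholipase, at 1375, 1160 and 1223 against 488. Both were called lower. The other lower members were Pglyrp1, Plet1, Retnlb, Saa3, Sprr1a, Sprr2a2, Sprr2a3 and Sprr2b.

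The enzymes that make hydrogen peroxide and nitric oxide at the epithelial surface were lower in part. Duoxa2 (chr2:122298900-122302885, plus strand), the maturation factor of dual oxidase 2, was listed at 41.5, 53.8 and 111 in the untreated KO libraries and 1.51 with antibiotics. Duox2 (chr2:122279247-122298449, minus strand), the peroxide-forming oxidase itself, was listed at 40.0, 42.5 and 76.3 against 3.65. These neighbouring genes are divergently placed on chromosome 2, and in both the treated library stood far below the others. Nos2 (chr11:78920787-78960254, plus strand), the inducible nitric oxide synthase, was listed at 61.3, 82.0 and 95.4 against 3.43. Its difference was -4.16 on the log2 scale from the untreated mean, where the 3 untreated values had an SD of 0.32. Noxa1, an activator of NADPH oxidase 1, was also lower. Arg2, an arginase that competes for the substrate of nitric oxide synthase, was the only higher one of the 13 genes in this list, at 47.9, 46.6 and 61.1 against 160. The difference of Duoxa2 was -4.67 (SD 0.73 over 3 untreated libraries) and that of Duox2 was -3.47 (SD 0.51).

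Of 21 Paneth cell genes 6 were lower and none higher, with a median of -0.82, and without KO couple 2 the count was 11. Defa5, a defensin precursor, was listed at 274, 590 and 186 against 21.7, and Defa23 at 445, 1123 and 265 against 112. Defensin genes are near-identical copies, and how the authors assigned shared reads is not given in the sources used here, so the value of each copy is uncertain. Lyz1, the Paneth cell lysozyme, was listed at 1967, 1567 and 2158 against 894, which is below the range by less than the 2-fold required. Among goblet cell genes 2 of 23 were lower (8.7%, against 2.17% of all genes), Retnlb, an antibacterial goblet protein, and Spink4. Muc2, the main gel-forming mucin, lay inside the untreated range at 90.9 against 64.4 to 90.9. So did the low-level entry listed as Clca1, at 3.13 against 2.76 to 3.51.

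**Figure D1:**
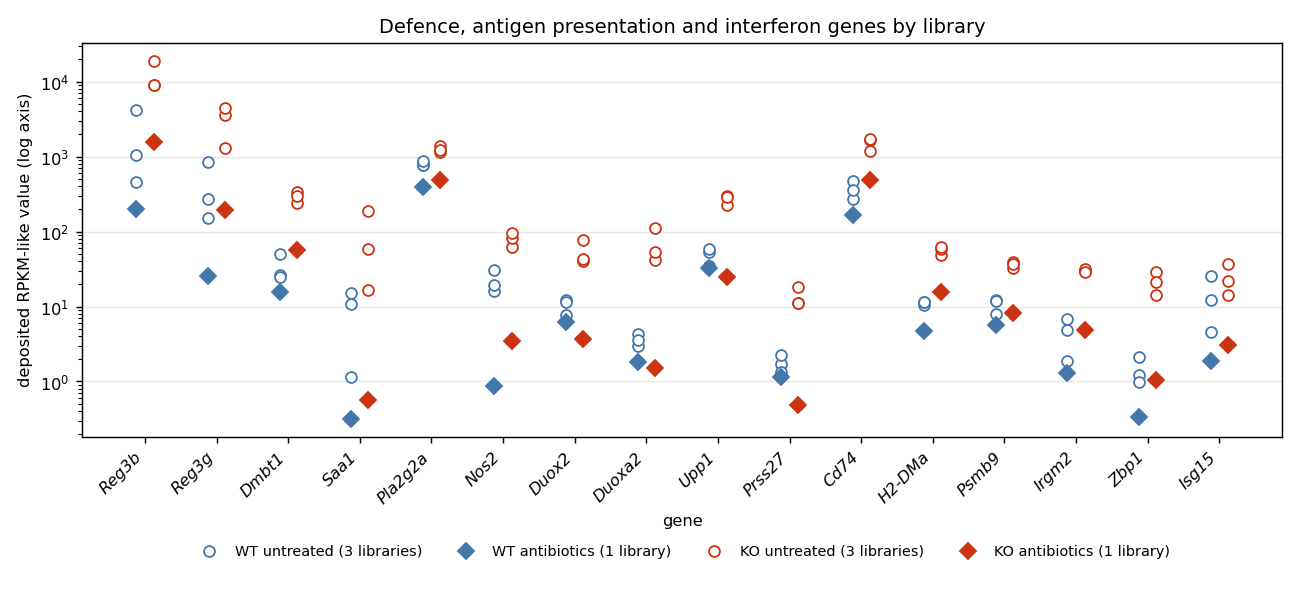
Deposited RPKM-like values on a log axis for 16 defence, antigen presentation and interferon genes. Open circles are the 3 untreated libraries and diamonds the 1 antibiotic library of each genotype (red KO, blue WT). Each red diamond lies below all 3 open red circles of its gene, for example 1.51 against 41.5 to 111 for Duoxa2.

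Of 15 MHC class II genes 6 were lower (Cd74, Ciita, H2-Ab1, H2-DMa, H2-DMb1, H2-Eb1) and none was higher, with a median of -0.96. Cd74, the invariant chain that guides class II molecules, was listed at 1189, 1643 and 1691 against 482. Ciita, the master regulator of class II genes, was listed at 6.22, 8.003 and 7.46 against 2.29, a call that ends after centring, quantile normalization or a pseudocount of 5. H2-Aa, a class II alpha chain, was listed at 489, 354 and 540 against 191, outside the range but not by 2-fold. Of 26 class I and immunoproteasome genes 3 were lower, all of them in peptide supply, and without KO couple 1 the count was 5. Psmb8 and Psmb9, inducible proteasome subunits, were listed at 78.8, 74.3 and 78.9 against 27.4 and at 32.6, 38.8 and 36.9 against 8.24. Tap1, a subunit of the peptide transporter, was listed at 30.8, 39.2 and 28.1 against 7.66. The nonclassical class I gene H2-Q1 was on the other side, at 37.7, 37.5 and 39.1 against 104. The cell type lists that could carry class II transcripts gave 0 of 21 B cell genes lower, with a median of 0.83. Of 23 macrophage, dendritic cell and neutrophil genes 1 was lower (4.35%, against 2.17% of all genes), with a median of -0.47. Of these 23 genes 15 lay below the range at any distance. The part of such cells in the class II values was not tested.

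Of 48 interferon response genes 24 were lower and none was higher, with a median of -1.24, and with a pseudocount of 5 the count was 6. Zbp1, a sensor of unusual nucleic acids that triggers cell death, was listed at 14.0, 29.1 and 21.2 against 1.03. Ubd, a ubiquitin-like modifier, was listed at 51.2, 65.7 and 24.1 against 2.63. Irgm2, an immunity-related GTPase, was listed at 29.3, 32.0 and 29.0 against 4.88. Usp18, which removes ISG15 from proteins, and Cxcl9, a T cell chemokine, were also lower. Among regulators, Irf8 was one of the 24 lower genes, while Irf1, Irf7, Irf9 and Stat2 lay below the range by less than 2-fold. These regulators were named after their values were seen.

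The promoters of 4 lower interferon genes are shown because they carry the interferon-stimulated response element through which many such genes are induced. The 250 bases before each start site were taken from RefSeq (GRCm38.p6), and GAAA followed by any 2 bases and a second GAAA was searched on both strands, with overlapping matches allowed. Capitals mark the matches, and the sequences run 5′ to 3′ on the gene's strand. The 4 genes were chosen after their values and matches were seen. Isg15 encodes a ubiquitin-like modifier, Ifit1 a protein that binds viral RNA, and Irgm1 and Gbp2 are GTPases that act on intracellular microbes.
Isg15, chr4:156200819-156201068, minus strand: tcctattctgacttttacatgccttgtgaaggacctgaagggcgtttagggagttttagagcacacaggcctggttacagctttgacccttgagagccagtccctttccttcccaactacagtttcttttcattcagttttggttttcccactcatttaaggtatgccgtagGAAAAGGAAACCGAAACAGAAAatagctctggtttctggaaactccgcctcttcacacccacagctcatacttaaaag
Ifit1, chr19:34640639-34640888, plus strand: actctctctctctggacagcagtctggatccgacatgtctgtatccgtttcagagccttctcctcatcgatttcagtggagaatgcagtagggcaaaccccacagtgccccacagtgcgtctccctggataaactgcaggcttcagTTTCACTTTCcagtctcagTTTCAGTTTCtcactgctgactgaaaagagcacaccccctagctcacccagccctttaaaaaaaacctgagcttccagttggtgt
Irgm1, chr11:48871421-48871670, minus strand: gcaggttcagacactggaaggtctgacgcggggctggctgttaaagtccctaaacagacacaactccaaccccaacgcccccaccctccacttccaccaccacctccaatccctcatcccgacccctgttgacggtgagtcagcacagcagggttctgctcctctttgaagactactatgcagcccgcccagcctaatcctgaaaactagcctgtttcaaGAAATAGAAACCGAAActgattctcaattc
Gbp2, chr3:142620413-142620662, plus strand: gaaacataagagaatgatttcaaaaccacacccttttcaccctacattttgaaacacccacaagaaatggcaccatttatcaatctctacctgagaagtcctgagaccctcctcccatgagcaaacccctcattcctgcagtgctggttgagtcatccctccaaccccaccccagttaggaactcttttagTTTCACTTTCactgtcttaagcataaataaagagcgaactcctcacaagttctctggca
Isg15 was listed at 14.2, 36.9 and 22.2 in untreated KO and 3.05 with antibiotics. Ifit1 was listed at 8.13, 11.6 and 5.99 against 1.42, Irgm1 at 13.3, 13.6 and 10.5 against 3.17, and Gbp2 at 18.9, 9.95 and 9.73 against 3.66. In all 4 the treated library was the lowest, which the rule for lower genes already requires. Of the 24 lower interferon genes 18 had a promoter in the RefSeq table, and 12 of these (66.7%) held the element. Of the 36 examined members with a promoter 19 did (52.8%), against 936 of all 27025 promoters (3.46%). Among all lower genes 19 of 169 (11.2%) held it, among all higher genes 5 of 142 (3.52%) and among all genes examined 274 of 8564 (3.2%). The 12 interferon genes are among these 19, so the share of the lower genes largely repeats that list. A match describes letters only and shows no binding.

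Of 27 cytokine and chemokine genes 4 were lower (14.8%, against 2.17% of all genes) and 1 was higher (3.7%, against 1.73%). With a pseudocount of 5 only 1 was lower. Il33, an epithelial alarmin, was listed at 19.7, 10.7 and 13.4 against 3.72, and Il18bp, which captures interleukin 18, at 14.0, 22.998 and 18.0 against 3.82. Ccl8, a monocyte chemokine, and Cxcl9 were the other lower ones. Il15, which sustains intraepithelial lymphocytes, was higher, at 6.35, 4.85 and 7.02 against 15.9. Gzma, a granzyme of cytotoxic cells, was lower at 15.6, 24.7 and 18.3 against 5.79. It was the only one of 30 T and NK cell genes, a share (3.33%) near that of all genes (2.17%). Igha, the IgA heavy chain, was listed at 3582, 2139 and 2075 against 1954, just under the range, and Igj, the joining chain, lay inside it.

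Genes of dividing cells and of protein folding stress were lower in part. Of 59 cell cycle genes 13 were lower, none was higher, and the median was -0.84. The lower count was 7 after quantile normalization, 8 after centring and 2 with a pseudocount of 5, where Ube2c and Ccnb1 are no longer called. Ube2c, which drives mitotic exit, was listed at 16.3, 25.6 and 14.0 against 5.0003, and Ccnb1, the mitotic cyclin, at 10.6, 8.18 and 8.66 against 2.61. Mki67, a proliferation marker, lay inside the range at 9.40 against 7.81 to 20.2. Olfm4, a crypt base marker, lay inside it at 151 against 133 to 167. Lgr5, a stem cell marker, was listed at 0.618, just under the 0.622 of couple 3. Both belong to the list of crypt stem cell genes and Wnt targets. Most genes examined in that list lay below the range, where 41.3% of all genes did, and only Sp5 lay above it. Ccnd1 of that list was called lower, with a log2 difference of -1.62, a call that ends after quantile normalization. Of 34 genes of the unfolded protein and amino acid stress list 5 were lower, among them Asns, asparagine synthetase, at 22.8, 23.2 and 14.6 against 4.32, and Manf, a secreted folding factor, at 26.9, 35.7 and 31.2 against 10.2. The count was 3 after centring and 2 with a pseudocount of 5. Cldn2, a claudin that forms a cation and water pore, was listed at 46.2, 30.3 and 33.9 against 9.54.

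By count, the list of fatty acid oxidation and PPARA targets held more higher genes than any other of the 49 lists. Of its 57 genes 24 were higher (42.1%) and none lower, with a median of 0.94. By share the cytochrome P450 list came first, at 47.4%, and over all genes 1.73% were higher. Pdk4 (chr6:5483351-5496309, minus strand), which turns off pyruvate dehydrogenase and so spares glucose, was listed at 0.985, 0.719 and 2.48 in untreated KO and 188 with antibiotics. Its distance beyond the nearest untreated value, 5.76 log2 units, exceeded that of every other gene examined. Acaa1b, a peroxisomal thiolase, was listed at 12.9, 5.88 and 18.3 against 151, and Acot1, an acyl-CoA thioesterase, at 2.44, 1.11 and 0.995 against 19.2. Angptl4, a secreted inhibitor of lipoprotein lipase, was listed at 2.51, 6.98 and 7.75 against 24.9, and Cat, peroxisomal catalase, at 41.2, 48.2 and 64.9 against 291. All of these genes were called higher, which by the rule places the treated library above all 3 untreated ones. Ppara itself, the receptor, was among the 24.

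Of 32 genes of fatty acid uptake and chylomicron assembly 8 were higher and none lower, with a median of 0.77. Cd36 (chr5:17781690-17888801, minus strand), a fatty acid receptor of the brush border, was listed at 10.99, 4.78 and 14.4 against 216. Fabp1, the fatty acid binding protein of the proximal gut and liver, was listed at 161, 108 and 146 against 1442, and Apoa4, an apolipoprotein of chylomicrons, at 537, 916 and 1172 against 6822. Slc27a2, which transports and activates long fatty acids, was listed at 7.99, 6.69 and 4.81 against 49.2. Apob, Apoc3, Lpin2 and Plin2 were the other higher members. Several of these genes are also expressed in liver. The summed liver value was highest in the antibiotic couple in both genotypes. In treated KO most of it was Alb (357 of 416), and 7 of the 12 liver genes were at 0. The part of liver transcripts in these genes was not tested.

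Of 19 genes of the cytochrome P450 list 9 were higher, none was lower, and the median was 1.27. Cyp3a11 (chr5:145854426-145879964, minus strand), the main drug-oxidizing P450 of liver and gut, was listed at 11.7, 3.12 and 20.3 in untreated KO and 403 with antibiotics. Cyp2c65, an arachidonic acid epoxygenase of the gut, was listed at 5.05, 3.49 and 10.5 against 67.3, and Cyp2d26 at 20.4, 22.6 and 35.8 against 219. For Cyp3a11 the difference was 5.28 on the log2 scale, where the 3 untreated values had a wide SD of 1.21. Among carboxylesterases, conjugating enzymes and drug exporters 15 of 48 were higher, with a median of 0.87. Ces1g, a carboxylesterase that hydrolyses triglyceride and drugs, was listed at 1.45, 1.39 and 1.98 against 65.3, and Ephx2, soluble epoxide hydrolase, at 37.2, 30.2 and 68.0 against 275. Gsta3, a glutathione transferase, was listed at 6.37, 5.65 and 7.52 against 39.4, but its WT littermate had still more, 99.0. Of 21 retinoid genes 5 were higher, with a median of 0.66. Retsat (chr6:72598475-72608425, plus strand), which saturates retinol, was listed at 8.72, 12.1 and 11.2 against 179. Adh1 and Rdh7, which oxidize retinol, were listed at 27.5, 15.7 and 24.2 against 269 and at 11.5, 7.23 and 14.6 against 108.

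Genes of the brush border, of sugar metabolism and of nutrient uptake were higher in part. Lct (chr1:128284756-128328318, minus strand), lactase, was listed at 11.004, 12.4 and 8.87 in untreated KO and 138 with antibiotics, while Sis, sucrase-isomaltase, stayed inside the range at 292 against 210 to 370. Pck1, the entry enzyme of gluconeogenesis, was listed at 9.85, 3.09 and 5.29 against 150, and G6pc, its last enzyme, at 0.819, 2.45 and 13.4 against 30.2. Slc5a4b, a sodium glucose cotransporter family member, was listed at 7.90, 10.2 and 11.3 against 86.4. In all, 6 of 17 genes of the disaccharidase and sugar list were higher and none lower, which is 35.3% against 1.73% of all genes. Cubn, the ileal receptor for vitamin B12 bound to intrinsic factor, was listed at 10.5, 8.01 and 11.2 against 92.2. Pyrimidine salvage genes went both ways. Cda (chr4:138338424-138367992, minus strand), cytidine deaminase, was listed at 6.10, 7.32 and 6.26 against 124, and Tymp, thymidine phosphorylase, at 4.61, 7.36 and 5.97 against 50.6. Upp1 (chr11:9118103-9136170, plus strand), uridine phosphorylase, was lower, at 227, 302 and 289 against 24.6. Among transporters of peptides and amino acids, Slc6a20a, the proline transporter, was higher at 19.5, 22.5 and 33.2 against 111. Slc6a14, a broad amino acid transporter, was lower at 7.94, 10.02 and 28.7 against 0.00366. Ace, the brush border peptidase, was listed at 132, 140 and 156 against 529. The water channels Aqp1 and Aqp3 and the scramblase Ano6 were 3 of 41 ion and water transport genes that were higher, and none was lower. After centring 5 were higher.

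Bile acid and sterol genes split. Fgf15 (chr7:144896531-144900953, plus strand), the hormone by which ileal bile acids restrain bile acid synthesis in the liver, was listed at 0.0454, 0.455 and 1.57 in untreated KO and 37.2 with antibiotics, inside the untreated WT range of 10.2 to 56.4. Slc10a2 (chr8:5083219-5105351, minus strand), the apical transporter that takes bile acids into the enterocyte, was lower, at 92.0, 63.7 and 153 against 7.53. Fabp6, the cytosolic bile acid binding protein, was listed at 779, 1059 and 2273 against 458, below the range by less than 2-fold. Cyp27a1, a sterol hydroxylase, and Abcc2, an organic anion exporter, were higher. Of 36 sterol genes 8 were lower and 2 higher, with a median of -0.92. Without KO couple 1 the lower count was 15, and with a pseudocount of 5 it was 5. The lower ones included the cholesterol synthesis enzymes Cyp51, Fdft1, Fdps, Nsdhl, Pmvk and Sqle. Sqle, squalene epoxidase, was listed at 34.8, 35.5 and 56.6 against 6.33. The higher ones were the sterol exporters Abca1, at 4.01, 3.27 and 2.87 against 15.6, and Abcg8, at 16.1, 17.4 and 20.8 against 67.1.

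**Figure D2:**
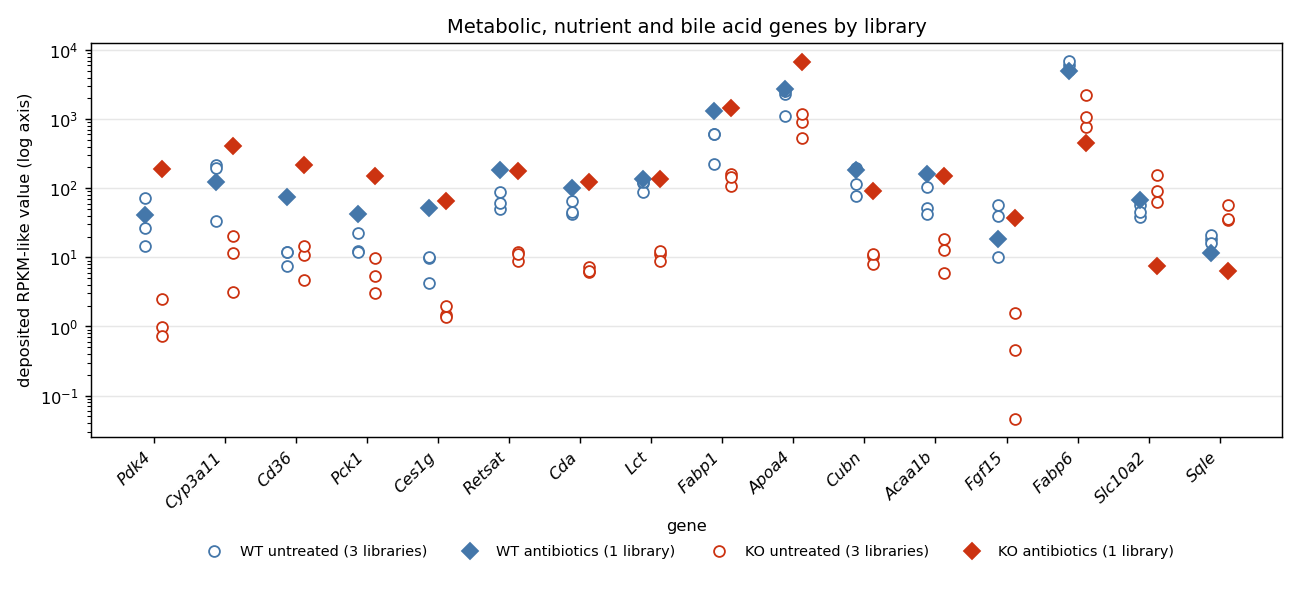
Deposited RPKM-like values on a log axis for 16 metabolic, nutrient and bile acid genes, with open circles for untreated and diamonds for antibiotic libraries (red KO, blue WT). The red diamond lies above all open red circles for 13 genes, such as 188 against 0.719 to 2.48 for Pdk4, and below them for Fabp6, Slc10a2 and Sqle.

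Several gene groups had no member at least 2-fold beyond the range. No gene was called among 20 of the circadian clock, 25 of smooth muscle, 33 of extracellular matrix, 20 of endothelium, 25 of iron handling, 13 encoded by mitochondrial DNA, 21 of B cells and 7 of tuft cells. Over all genes only 1.73% were higher and 2.17% lower, so lists of this size would hold few calls or none. At any distance 9 clock genes lay above the range and 1 below. For endothelium 8 lay above and 1 below, and for smooth muscle 1 above and 15 below. Over all genes 19.1% lay above and 41.3% below. The clock gene Arntl was listed at 3.16, 6.24 and 6.93 against 3.43, inside the range, and Per2 at 10.6 against 8.06 to 10.2. Of the transcription factor list Hnf4g, an enterocyte nuclear receptor, and Vdr, the vitamin D receptor, were higher, at 65.4, 40.9 and 67.8 against 175 and at 48.0, 59.6 and 49.2 against 121. Vdr is no longer called after quantile normalization or with a pseudocount of 5.

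**Figure D3:**
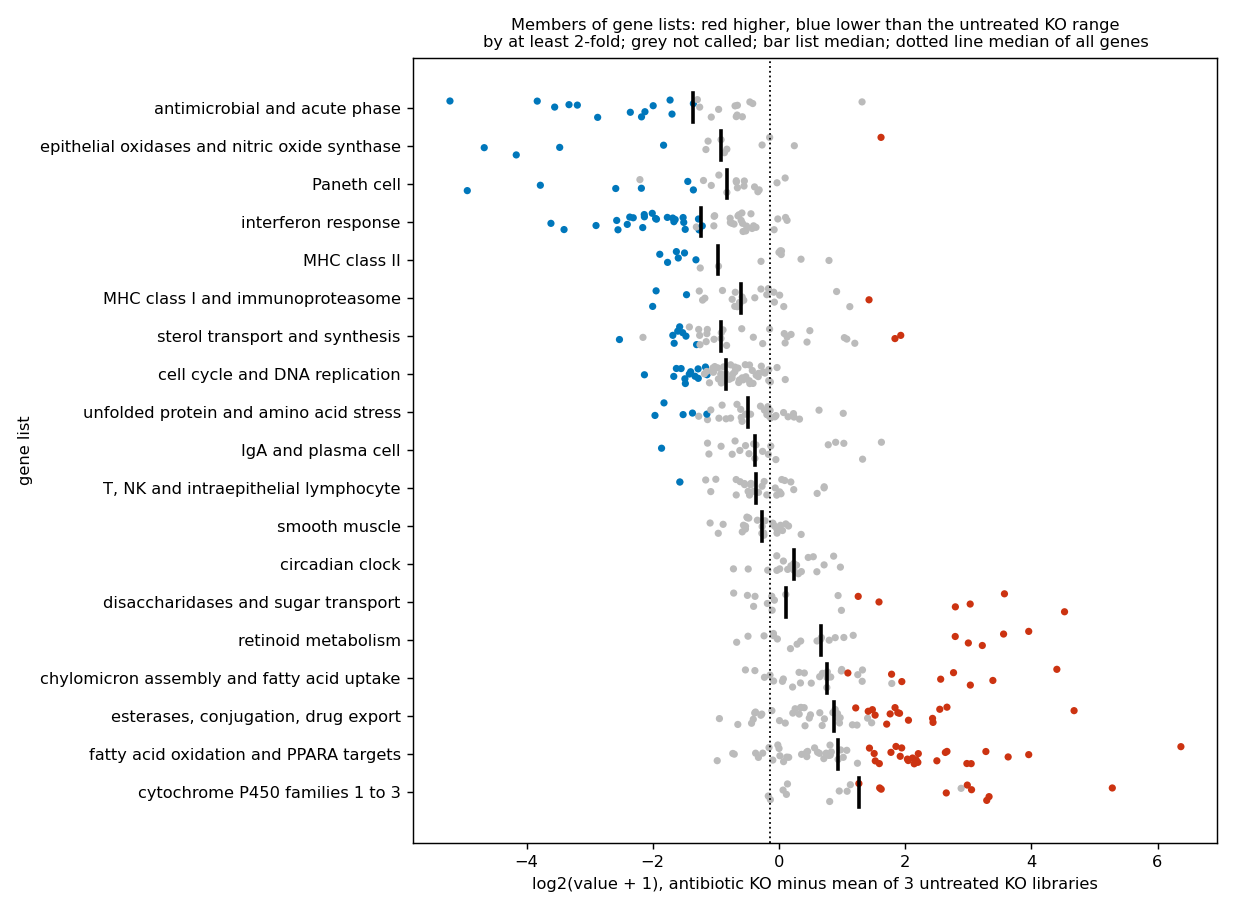
Each point is 1 gene, placed by its log2 difference between the antibiotic KO library and the mean of the 3 untreated KO libraries, in 19 gene lists. Red points are at least 2-fold above the untreated range and blue ones at least 2-fold below it. List medians (bars) run from -1.36 for antimicrobial genes to 1.27 for cytochromes P450, with -0.14 for all genes (dotted line).

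The WT littermate of the treated KO mouse shared its couple, treatment and normalization set. By the same rule, and leaving out 423 genes with faulty values in its column, 48 of 11286 genes (0.425%) were higher than the 3 untreated WT libraries and 65 (0.576%) lower. Whether the number of called genes differed between genotypes was not tested. Of the 202 genes higher in KO 194 were examined in WT, and 17 were higher there too, which is 8.76% of the KO genes and 39.5% of the 43 WT genes examined in both. Retsat, Cd36, Fabp1, Ces1g and Tm4sf4 were among them. Of the 194, 130 lay above the WT range at any distance, where 10.4% of all genes did. Of 216 lower KO genes examined in WT 10 were lower (4.63% of the KO genes, 15.4% of the 65 WT genes) and 173 lay below the range at any distance, where 39.3% of all genes did. Reg3b, Reg3g and Nos2 were lower in both genotypes. In WT, Reg3g was listed at 274, 152 and 854 without and 25.9 with antibiotics, and Nos2 at 31.2, 16.1 and 19.6 against 0.862. Lct, in contrast, was near its untreated WT values of 88.4 to 122 with 136, and Cyp3a11 in WT, at 121, lay inside its range of 33.8 to 216.

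The ratio of KO to WT within a couple is taken inside 1 normalization set. In the antibiotic couple it lay at least 2-fold beyond the 3 untreated couples in 163 of 11294 genes (1.44%) on the higher side and 126 (1.12%) on the lower side. Of the 202 higher KO genes 98 of 197 with a usable ratio were beyond it in the same direction, and of the lower ones 81 of 240. The ratio holds the same KO values that selected these genes, so this overlap is partly built in and is no separate evidence. For Duoxa2, KO minus WT was 3.00, 3.79 and 4.63 log2 units in untreated couples 1, 2 and 3 and -0.17 in the antibiotic couple. For Lct it was -3.32, -2.74 and -3.64 without and 0.02 with antibiotics. For both genes the littermates were closer to each other in the treated couple than in each untreated one. For Slc10a2 it was 1.25, 0.18 and 1.71 without and -2.996 with antibiotics. Reg3b and Reg3g, by contrast, stayed inside the range of the untreated couples, at 2.98 and 2.85, and so did Nos2 at 1.25. Cd74 stood at 1.52 in the antibiotic couple against 1.78 to 2.22 without, which is below that range by less than 2-fold.

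**Figure D4:**
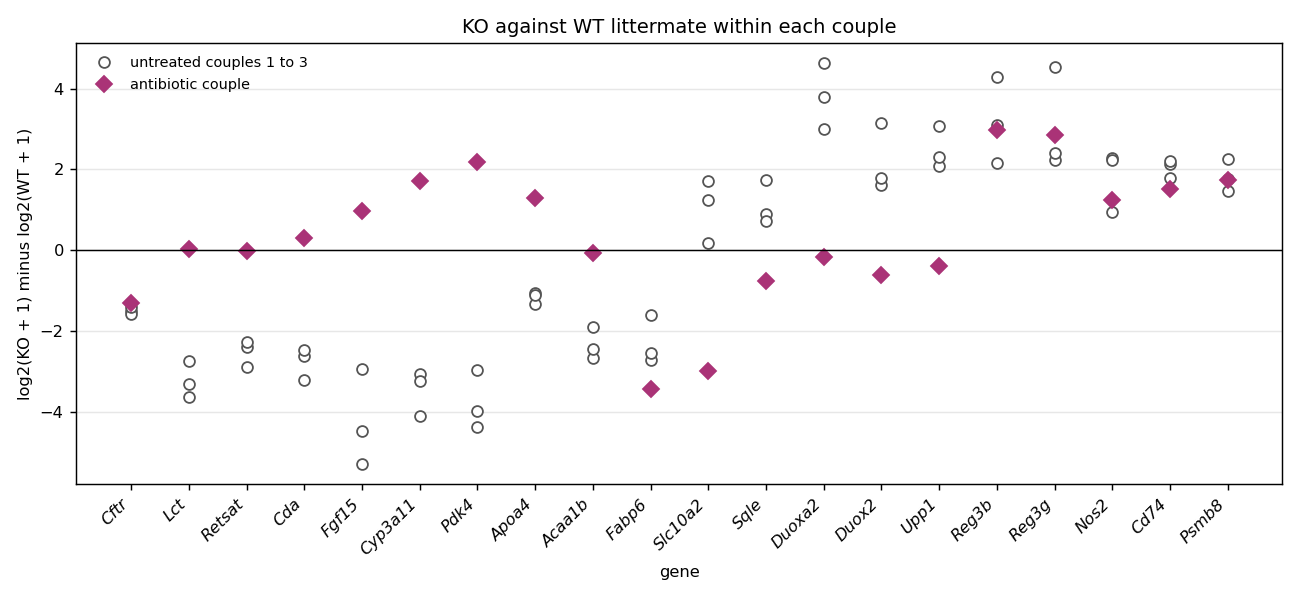
Difference log2(KO + 1) minus log2(WT + 1) within each littermate couple for 20 genes, with open circles for the 3 untreated couples and a diamond for the antibiotic couple. The diamond lies near 0 for Lct, Retsat and Duoxa2, where the untreated couples differ from 0 by over 2 log2 units, and within the circles for Reg3b and Reg3g.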

How the data were processed

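Polyadenylated RNA was sequenced from 1 library per mouse on an Illumina HiSeq 2000 or an Ion Proton, per the labels' protocols. The instrument of each library is not given in the sources used here. Per the series' design text, CLC Genomics Workbench 7.5 mapped the authors' reads to GRCm38, release 76, by its defaults. The deposited values carry no named unit and were taken as RPKM, scaled by library size and gene length, from the values themselves. Sorted values coincide within couples 1 and 2 together, and most of them within couple 3 and within the antibiotic couple, so the deposited table was treated as 3 separately normalized sets. Levels set across these sets carry that limit. Read depth is unknown, and no counting interval was computed. All columns were used.

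Values were compared as log2(value + 1), which understates differences of low genes. The range rule needs 1 log2 unit beyond the nearest untreated value. A treated value of exactly 0 was not called lower, and this touched 1 gene. The rule was run on simulated libraries with a common SD and no effect of couple or normalization set. Such a run cannot show how often the rule errs in these data. In the WT antibiotic column 376 genes share non-zero values, 45 are at 0 while the littermate has at least 1, and 2 lie far below both, and these 423 genes were left out of WT and ratio comparisons.

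The libraries and the 49 gene lists were chosen with earlier results of these data known, so counts within a list are descriptions and no independent evidence of its direction. Named genes are Cftr, the 12 farthest beyond the range on each side among genes at or above the median level, up to 4 called members per list and direction, and a fixed set of marker genes. Genes stated to be chosen after their values were seen fall outside this rule, as do genes named only as called members of a list or as checks of the labels. A few genes are not reported here. Coordinates are from GENCODE M21 and promoters from RefSeq, both GRCm38. limma 3.58.1 in R 4.3.3 served as an alternative; other steps used Python 3.11.15 with pandas 2.3.3 and numpy 2.4.6.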

Additional observations from a re-analysis of the deposited data

Results flagged for a closer look

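Among named genes that reached 1 in 2 or more WT libraries, faulty WT values left out, there were 4 in which the treated KO library lay at least 2-fold beyond its untreated range while the treated WT littermate lay outside its own range on the opposite side. The difference between genotypes was not tested for any of them. Slc10a2, the ileal bile acid transporter, was 7.53 in treated KO, below 63.7 to 153, and 67.1 in treated WT, above 38.2 to 56.3. G6pc, glucose-6-phosphatase, was 30.2 against 0.819 to 13.4 in KO and 3.24 against 5.41 to 25.5 in WT. The stress-responsive transcription factors Atf3 and Fos were 3.31 against 9.01 to 29.7 and 10.99 against 23.6 to 55.1 in KO. In WT they were 15.8 against 8.01 to 12.0 and 109 against 19.4 to 24.7. Of these 4, Fos was at least 2-fold beyond the range in WT as well.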

How the results depend on the processing

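Against 202 genes higher and 254 lower, the counts were 235 and 450 with a pseudocount of 0.1 and 142 and 90 with 5. They were 53 and 35 at 4-fold, 2231 and 4816 at any distance with treated values of 0 left out, 260 and 168 after centring, and 163 and 126 by the littermate ratio. Leaving out 1 untreated KO library at a time, which narrows the range, gave 231 to 294 higher and 335 to 413 lower. limma with Benjamini-Hochberg adjustment, assuming that the lone treated library varies like the others, called 68 and 87, of which 68 and 85 were also called by range. Of 110 genes chosen by the naming rule that were called, 86 kept the call under both pseudocounts, quantile normalization, centring and each left-out library. The 4-fold cut and limma were not part of this count. A pseudocount of 0.1 only widens the distances, so it could lose none. A pseudocount of 5 lost 22 (Noxa1, Tac1, Usp18, Fkbp11, Gzma, Cd14, Il15, Cxcl9, Ccl8, Il33, Casp4, G6pc, Slc7a15, Vdr, Cenpa, Ccnb1, Ube2c, Atf3, Sdf2l1, Fos, Saa3, Ciita), quantile normalization 6 (Cd14, Casp4, Vdr, Ccnd1, Fos, Ciita) and centring 6 (Retnlb, Cd14, Casp4, Sdf2l1, Fos, Ciita). Leaving out any 1 untreated library lost none. It can only narrow the untreated range, so this was all but fixed by the rule. The littermate ratio kept 60 of 104. It turned the sign of Casp4 (0.0045), Gsta3 (-1.74) and Akr1c13 (-0.37), and the cause was not tested.

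Some list medians near 0 changed sign, and no direction is given for these lists. After centring, medians were 0.17 for immediate early genes, 0.0760 for tight junctions, 0.0472 for enteric neurons and glia, 0.0528 for ileum identity, 0.0107 for housekeeping genes and 0.0426 for all genes. After quantile normalization they were -0.0267 for glutathione genes, 0.00195 for tight junctions, 0.0836 for enteric neurons and glia and 0.00465 for all genes. Leaving out 1 untreated library at a time gave -0.0917 (without couple 1) to 0.113 for nucleoside and vitamin genes and -0.0736 (without couple 2) to 0.0740 for glutathione genes, with -0.00713 without couple 1. It gave -0.143 to 0.0280 for tight junctions, -0.193 to 0.118 for enteric neurons and glia and -0.160 to 0.0176 for ileum identity, with each upper value coming without couple 3. No paired analysis was possible because the treated KO library shares no couple number with the untreated ones. Depth is unknown, so low values have no counting error.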

Other observations

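Genes outside the lists, named after their values were seen, included members of cell death and glycan pathways on the lower side. All 3 gasdermin C genes examined were lower. Gsdmc4, a pore-forming gasdermin of the gut epithelium, was listed at 18.5, 17.8 and 30.1 in untreated KO and 1.94 with antibiotics, against 10.9 to 21.6 and 7.70 in WT. The necroptosis kinase Ripk3 was listed at 36.3, 26.9 and 33.4 against 8.33 and its substrate Mlkl at 8.50, 9.25 and 7.59 against 1.99. Of 28 terminal glycosyltransferase and sulfotransferase genes 4 were lower and none was higher, where 2.17% of all genes were lower. Fut2, which fucosylates epithelial glycans, was listed at 4.87, 5.29 and 11.9 against 0.230, and B3gnt7, which extends them, at 25.8, 56.2 and 54.6 against 3.96. Ido1, which degrades tryptophan, was listed at 23.1, 30.8 and 16.05 against 2.10.

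On the higher side, Sgk1, a kinase induced by glucocorticoids, was listed at 12.6, 21.5 and 38.3 in untreated KO and 166 with antibiotics, and at 56.7 to 81.9 and 171 in WT. Fkbp5, another glucocorticoid-responsive gene, was listed at 8.86, 7.70 and 9.40 against 25.8. Hpgd, which inactivates prostaglandins, was listed at 66.4, 56.7 and 111 against 331. Irs2 and Insr, of the insulin pathway, were listed at 4.66, 5.02 and 2.42 against 13.1 and at 5.65, 3.64 and 3.40 against 12.7.

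Without the filter on low values 20 further genes were higher; by the form of the rule no gene could become lower this way. Cyp4a10, a fatty acid omega-hydroxylase and PPARA target, was listed at 0.425, 0.231 and 0.154 in untreated KO and 48.9 with antibiotics. Its WT values were 3.79, 14.4 and 11.9 without and 131 with antibiotics. Slc28a1, a pyrimidine nucleoside transporter, was listed at 0.633, 0.884 and 0.730 against 30.3. Among the 20 were also genes typical of nervous tissue, such as Nrgn at 0.426, 0.327 and 0 in untreated KO against 4.86, with 6.46 in the treated WT littermate. The summed value of 16 nervous system genes, also listed after values were seen, was 6.04 to 9.57 in untreated KO, 25.8 in treated KO and 32.0 in treated WT, and 8 of the 16 were listed at 0 in treated KO. The source of these transcripts was not tested.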
